A study of Mus musculus with 2 samples.

Results

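Stellate and other mesenchymal cells were looked for among the barcodes of perfused mouse livers by the RNA of 10 genes. A barcode was taken as a member when its unique molecular identifiers (UMIs, each standing for 1 captured transcript) of Dcn, Colec11, Ecm1, Reln, Col3a1, Lum, Col14a1, Bgn, Sod3 and Angptl6 summed to at least 3. It also had to hold fewer than 10 UMIs of 6 sinusoidal endothelial genes (Ptprb, Kdr, Egfl7, Cldn5, Ramp2 and Clec4g) and fewer than 10 of 6 macrophage genes (C1qa, C1qb, C1qc, Cd5l, Vsig4 and Clec4f). Of 4513 barcodes in both libraries 133 met this rule, and 32 of these, called core barcodes here, reached a sum of 10. The control library held 46 members of 2989 barcodes (1.54%, exact binomial 95% interval 1.13 to 2.05%), of which 9 were core. The tetYAP 4W library held 87 members of 1524 barcodes (5.71%, 4.60 to 6.99%), of which 23 were core.

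Both libraries came from mice of a C57BL/6 background that carry the tetracycline transactivator tTA under the liver-directed LAP promoter. The control genotype was LaptTA;WT, without the inducible transgene, and the other genotype was LaptTA; tetYAP, in which an activated mutant of the transcriptional co-activator YAP is expressed once doxycycline is withdrawn. Doxycycline food was withdrawn at 4 weeks of age and the title of the second library marks 4 weeks of induction. LAP directs tTA to hepatocytes, and expression of the transgene in stellate cells was not measured. Each genotype was represented by 1 library of collagenase-perfused liver labelled as hepatocytes, so genotype, animal, sex, cell isolation and sequencing depth cannot be told apart. No test between genotypes was possible, and each interval below covers counting error in its library and nothing else.

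Hepatic stellate cells lie in the space of Disse between hepatocytes and sinusoidal endothelium and hold most of the vitamin A of the body as retinyl esters. In a resting state they secrete a sparse matrix, growth factors and lectins. In injured liver they turn into contractile, collagen-producing myofibroblasts, which is the main route to fibrosis. Portal fibroblasts, vascular smooth muscle and mesothelium are the other mesenchymal cells of the organ.

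Members had depths close to those of the other barcodes of their library. Control members had a median of 3191.5 UMIs (range 1515 to 6224) and tetYAP 4W members a median of 3832 (2378 to 7163), against 3116 and 4179 in the barcodes that were not members. The mitochondrial share of UMIs had medians of 28.8% in control and 38.9% in tetYAP 4W members, again close to the other barcodes (28.1% and 37.6%). No barcode sequence was shared between the libraries. In all, members gave 149235 UMIs in control and 351714 in tetYAP 4W. Xist, which silences an X chromosome in female cells, had 0 UMIs in control members and 208 in 44 of the 87 tetYAP 4W members, while 4 Y-linked genes had 11 UMIs in control members and 0 in tetYAP 4W members. The other barcodes of each library showed the same division, so the libraries differ in the sex that their RNA shows, which the labels do not give.

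The genes that follow are described with 3 promoters in view. They are those of Lrat, the enzyme that makes the stored retinyl esters, of Col3a1, a fibrillar collagen among the 10 rule genes, and of Myl9, a myosin light chain of contractile cells. Of 39 genes looked up in RefSeq (GRCm38.p6, the build of mm10), 29 had a promoter entry. The letters of 3 motifs were searched in the bases before each gene. They were TATAAA on the strand of the gene, and on both strands the TEAD motif CATTCC or its complement GGAATG, through which YAP reaches DNA, and the CArG box, bound by serum response factor. Capitals mark the match, and the sequences are given on the strand of the gene.
Lrat promoter, chr3:82903975-82904224, minus strand, TEAD letters starting 208 bases before the gene: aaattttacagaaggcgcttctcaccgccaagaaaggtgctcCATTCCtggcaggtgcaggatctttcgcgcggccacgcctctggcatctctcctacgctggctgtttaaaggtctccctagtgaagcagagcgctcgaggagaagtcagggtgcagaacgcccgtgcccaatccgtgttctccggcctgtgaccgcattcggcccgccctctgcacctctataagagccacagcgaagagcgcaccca
Col3a1 promoter, chr1:45311288-45311537, plus strand, TEAD letters starting 168 bases before the gene: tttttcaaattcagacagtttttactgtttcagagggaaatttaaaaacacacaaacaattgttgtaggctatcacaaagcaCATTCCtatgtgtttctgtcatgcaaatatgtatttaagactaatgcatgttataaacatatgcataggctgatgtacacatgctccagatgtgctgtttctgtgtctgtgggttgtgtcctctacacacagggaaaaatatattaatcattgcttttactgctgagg
Myl9 promoter, chr2:156775214-156775407, plus strand, CArG box starting 105 bases before the gene: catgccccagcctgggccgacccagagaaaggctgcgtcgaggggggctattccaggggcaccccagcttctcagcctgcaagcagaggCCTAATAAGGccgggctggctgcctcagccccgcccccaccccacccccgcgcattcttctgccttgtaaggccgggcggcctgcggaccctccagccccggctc
The TEAD letters stood in 2 of the 29 promoters, and in 12.6% of all 32851 promoter windows of RefSeq. The CArG box stood in 1 of the 29 and in 1.47% of all windows, and TATAAA in 5 (Adamtsl2, Col3a1, Ecm1, Postn and Rgs4) and in 7.59%. These matches describe the sequence only, as no binding was measured here.

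The sum that chose the members was spread thinly. In the control library 2416 barcodes had a sum of 0, 383 had 1, 61 had 2, 17 had 3 and 11 had 4, among barcodes under both limits. In the tetYAP 4W library the corresponding numbers were 663, 282, 62, 32 and 9. The median sum of a member was 4 in control and 5 in tetYAP 4W, and the highest sums were 71 and 227. A member held UMIs of a median of 3 of the 10 genes in both libraries. In core barcodes this was 6 genes in control (range 4 to 9) and 8 in tetYAP 4W (4 to 10). Only 4 control members and 2 tetYAP 4W members reached the limit through a single gene.

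**Figure D1:**
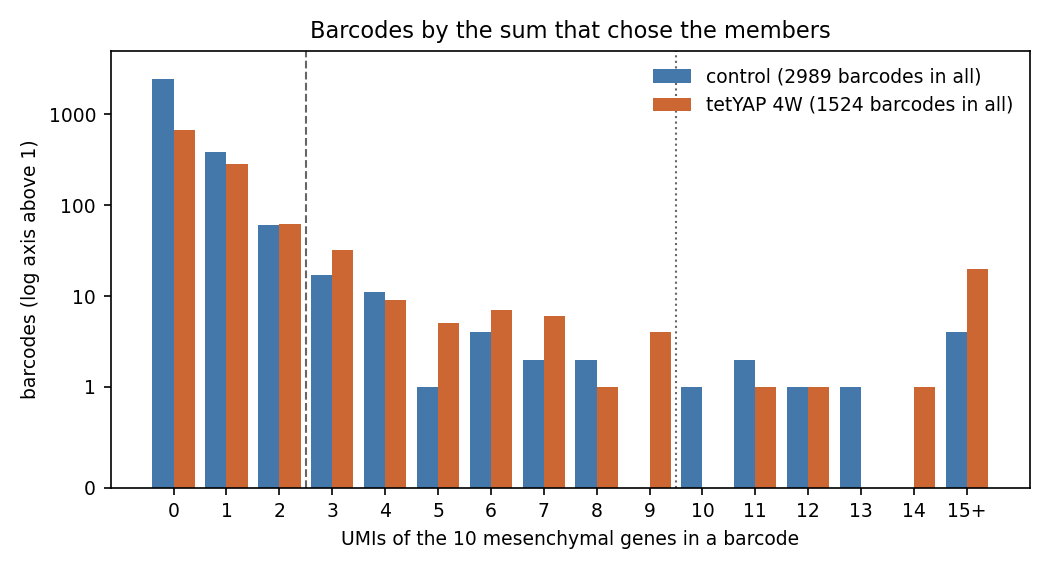
Number of barcodes (vertical axis, log above 1) by the sum of UMIs of the 10 mesenchymal genes (horizontal axis), among barcodes under the endothelial and macrophage limits. Bars are the control and tetYAP 4W libraries, the dashed and dotted lines mark the limits of 3 and 10, and both libraries fall steeply to a thin tail of 9 and 23 core barcodes.

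A further 25 stellate genes that the rule did not use show how much of this tail carried the programme of a stellate cell. They include Lrat, Des, Pdgfrb, Hgf, Cygb, Rgs5, Prelp, Ifitm1 and Gdf2. In the control library their sum per barcode was 0.302 at a rule sum of 0, 0.623 at 2, 1.68 at 3 to 4, 2.22 at 5 to 9 and 6.44 (exact Poisson 95% interval 4.89 to 8.33) in core barcodes. In the tetYAP 4W library it was 0.477, 0.710, 1.20, 3.61 and 11.8 (10.4 to 13.3) over the same steps. The level was higher at every step in both libraries, and the intervals of core barcodes lay apart from those of every lower step. Per 10000 UMIs the core level was 18.4 (14.0 to 23.8) in control and 30.8 (27.2 to 34.7) in tetYAP 4W, against 0.967 and 1.12 at a rule sum of 0. The barcode of the highest sum carried much of this: without it the core level was 12.9 in control and 24.5 in tetYAP 4W, in an alternative chosen after the data were seen.

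**Figure D2:**
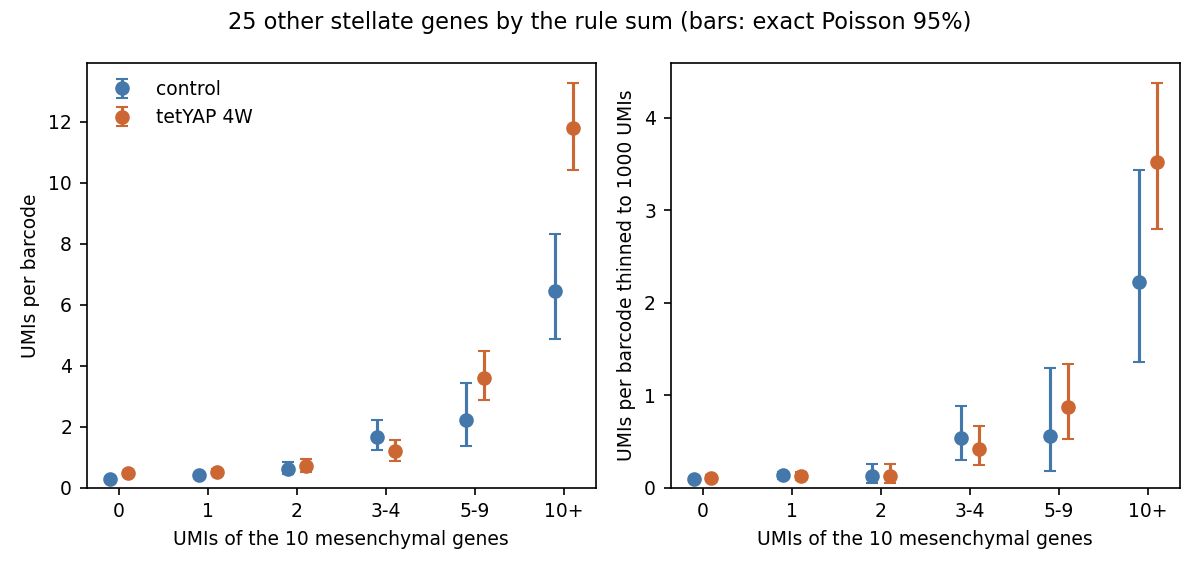
UMIs of the 25 other stellate genes by the rule sum, for the control and tetYAP 4W libraries, with exact Poisson 95% intervals as bars. The left panel gives UMIs per barcode as found, up to 6.44 and 11.8 in core barcodes, and the right panel UMIs per barcode after thinning each to 1000 UMIs, up to 2.22 and 3.52.

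Just inside the limit, the 17 control barcodes with a sum of 3 had 1.76 UMIs of the 25 genes each, and 7 of them had none. Just outside it, the 61 with a sum of 2 had 0.623 each, and 34 had none. In the tetYAP 4W library the values were 1.13 at a sum of 3 (9 of 32 with none) and 0.710 at a sum of 2 (31 of 62 with none). Over all members, 13 of 46 in control (28.3%) and 16 of 87 in tetYAP 4W (18.4%) had no UMI of the 25 genes. Among core barcodes these were 2 of 9 and 0 of 23. Barcodes at the limit thus carried far less of the stellate genes than core barcodes, and the label of stellate cell rests mainly on the core.

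T and natural killer cell barcodes, which should make none of the 10 genes, give the level that free RNA in the droplets can reach. They were defined by at least 5 UMIs of a T and NK gene list. A sum of 3 or more was found in 0 of 15 such barcodes in control (interval up to 21.8%) and in 7 of 134 in tetYAP 4W (5.22%, 2.13 to 10.5%). Over all barcodes, with the endothelial and macrophage limits lifted, it was found in 1.81% and 10.04%. All 7 T and NK barcodes that reached 3 in tetYAP 4W also met both limits and were members. With the limits kept, the share of all tetYAP 4W barcodes was 5.71%, close to the 5.22%. At a sum of 10 the values were 0 of 15 and 1 of 134 (0.746%), against 0.401% and 1.97% of all barcodes. The T and NK barcodes were somewhat deeper, with medians of 4053 and 4807.5 UMIs against 3117 and 4150. After every barcode was thinned to 1000 UMIs (25 shallower control barcodes were left out), 0.540% of control and 2.23% of tetYAP 4W barcodes reached 3, against 0 of 15 and 0.746% of T and NK barcodes. In the tetYAP 4W library the T and NK interval at 3, 2.13 to 10.5%, held both the 10.04% and the 5.71% of all barcodes. The sum alone thus does not set the lower members apart from free RNA or mixed droplets at this depth.

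The limits on endothelial and macrophage genes left out 8 control barcodes and 66 tetYAP 4W barcodes that reached a sum of 3. Of the 66, 43 exceeded the endothelial limit, 21 the macrophage limit and 2 both. They held 2.44 UMIs of the 25 stellate genes each (2.08 to 2.85), and the 8 control barcodes 3.25 (2.12 to 4.76). The tetYAP 4W barcodes that were left out included 7 with a sum of 10 or more, the highest being 46. The share of members in control and tetYAP 4W was 3.58% and 9.78% at a sum of 2, and 0.602% and 3.02% at a sum of 5. With endothelial and macrophage sums under 3 the shares were 1.47% and 1.97%. The median macrophage sum of a member was 0 in control and 3 in tetYAP 4W. This limit thus removed tetYAP 4W members at their usual macrophage level and hardly touched control. The 1.97% therefore does not show how much of the difference between the libraries lay in mixed barcodes. The recovery of a cell type in a perfusion and its number in the liver cannot be told apart here.

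RNA of other cells was present in members and was unevenly divided. Hepatocyte RNA, 12 genes such as Alb and Apoa1, stood at 310 UMIs per control member and 337 per tetYAP 4W member, near the 318 and 312 of T and NK barcodes, so every set of barcodes held a like amount. Portal fibroblast and mesothelial genes were all at 0 in control members (19 of 19). In tetYAP 4W members 8 of the 19 had UMIs, led by Gsn with 11, Thy1 with 6, Eln with 5 and Fbn1 with 4, while Dpt, Mgp, Clec3b, Msln and Wt1 had 0. Their sum was 0.368 UMIs per tetYAP 4W member and 0.685 per T and NK barcode. Thy1 had 6 of its 100 UMIs of the tetYAP 4W library in members. Its part in the T and NK level is not given here, so that level is not read as free fibroblast RNA. Of the cholangiocyte genes, Epcam, Krt19, Krt7 and Cftr had 0 UMIs in members of either library, and Spp1 had 26 in tetYAP 4W members. Of the stellate genes Gfap had 0 in both.

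Mixed barcodes were concentrated in one library. A member was counted as mixed when it held at least 5 UMIs of T and NK genes or of B cell genes, or at least 10 of further macrophage, endothelial, neutrophil or erythroid genes. This applied to 1 of 46 control members and to 28 of 87 tetYAP 4W members, of which 11 met the endothelial, 7 the T and NK, 5 the B cell, 3 the macrophage, 2 the erythroid and 1 the neutrophil criterion. A member could meet more than 1. In core barcodes it applied to 1 of 9 and 4 of 23. Further macrophage genes summed to 0.0652 UMIs per control member and 4.23 per tetYAP 4W member, and endothelial genes to 0.891 and 3.47. The other barcodes of the 2 libraries differed in the same direction (0.276 and 8.23 for macrophage, 1.13 and 7.97 for endothelial genes). Doublets were not called, and the part of mixed droplets in the values below was not tested beyond leaving these members out.

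**Figure D3:**
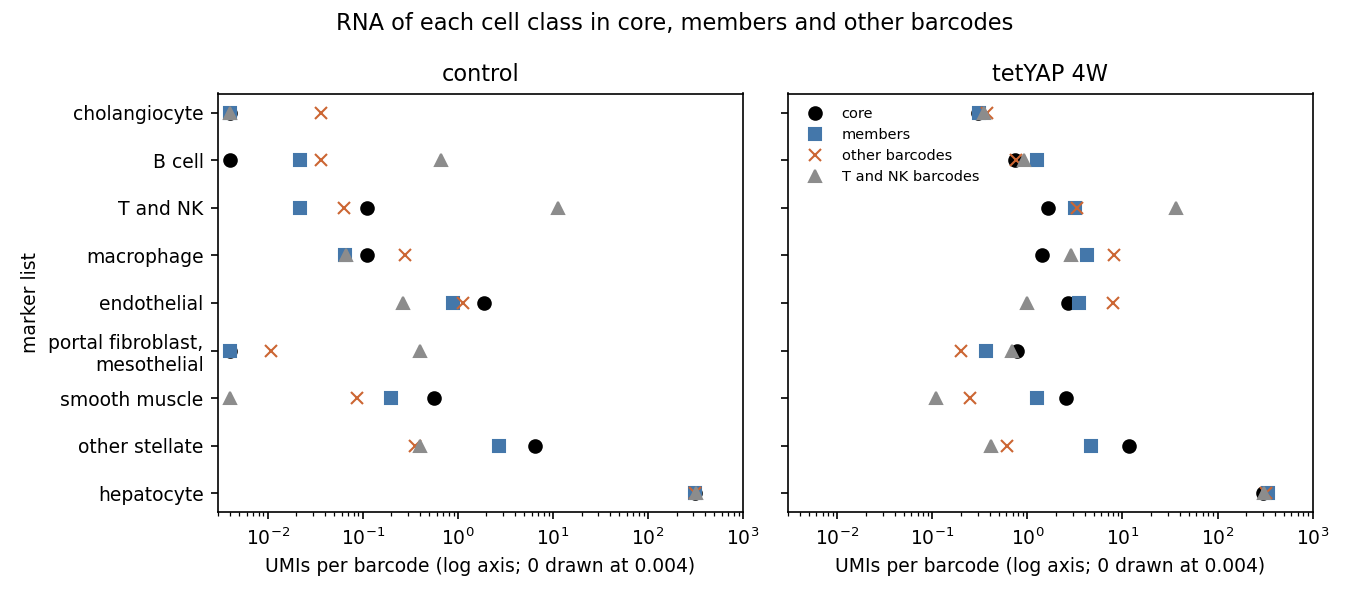
Summed UMIs per barcode (log axis, 0 drawn at 0.004) of marker lists of each cell class in core barcodes, members, other barcodes and T and NK barcodes, in the control panel and the tetYAP 4W panel. Hepatocyte RNA sits near 300 in every set, while stellate RNA is highest in core barcodes, at 6.44 in control and 11.8 in tetYAP 4W.

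The 10 rule genes were led by Dcn in both libraries. As these genes chose the members, their levels are given as a description. Dcn, which encodes the small proteoglycan decorin (chromosome 10, 97479500 to 97518163), had 132 UMIs in 34 of 46 control members and 398 in 68 of 87 tetYAP 4W members. Core barcodes gave 79 and 321 of these. Ecm1, a matrix glycoprotein of quiescent stellate cells (chromosome 3, 95734147 to 95739876), had 82 and 218 UMIs. Bgn, the related proteoglycan biglycan, had 25 and 141, and Colec11, a secreted collectin (chromosome 12, 28594172 to 28623458), had 29 and 113. Reln, which encodes the secreted protein reelin, had 21 and 45, and Angptl6, an angiopoietin-like secreted factor, 22 and 45. Col14a1, a collagen that sits on fibrils, had 14 and 64, and Sod3, the extracellular superoxide dismutase, 5 and 43. Lum, the proteoglycan lumican, had 8 and 27. Col3a1 (chromosome 1, 45311538 to 45349706) was the least abundant of the 10 in control together with Sod3, with 5 UMIs, and had 72 in tetYAP 4W.

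Relative to all UMIs of the members, these genes were not shifted alike between the libraries. The log2 ratio of CPM (UMIs of a gene scaled to the UMIs of all genes in the same barcodes), tetYAP 4W members over control members, was 2.61 for Col3a1 (exact conditional 95% interval 1.32 to 4.28), 1.87 for Sod3 (0.53 to 3.56), 1.26 for Bgn (0.64 to 1.93) and 0.96 for Col14a1 (0.11 to 1.91). It was 0.73 for Colec11 (0.13 to 1.37) and 0.36 for Dcn (0.07 to 0.65). For Ecm1 (0.17, -0.20 to 0.56), Lum (0.52, -0.66 to 1.87), Reln (-0.14, -0.92 to 0.68) and Angptl6 (-0.20, -0.97 to 0.60) the interval held 0, and Lum, Reln and Angptl6 changed direction under at least 1 alternative. The barcodes that are not members also held more of most of these genes in tetYAP 4W, with log2 ratios of 2.58 for Col3a1, 2.24 for Sod3, 1.64 for Bgn and 1.15 for Dcn. The median of all 2079 genes compared was -0.14 in members and -0.15 in the other barcodes.

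Single core barcodes differed widely among themselves. The control core had rule sums of 71, 27, 19, 15, 13, 12, 11, 11 and 10, and the tetYAP 4W core ran from 227, 85, 51, 50 and 43 down to 11. The barcode with 227 held all 10 genes, with 105 UMIs of Dcn, 33 of Ecm1, 21 of Bgn, 14 of Col3a1 and 72 of the 25 other stellate genes, among 6913 UMIs in all. The highest control barcode held 9 of the 10, with 36 UMIs of Dcn, 16 of Ecm1 and 24 of the other stellate genes, among 5185. Every core barcode of both libraries held Dcn. The third highest tetYAP 4W barcode, with a sum of 51, had 33 UMIs of Dcn and 10 of Colec11 but 0 of Ecm1, Reln, Lum, Col14a1 and Bgn. Col3a1 was uneven as well, since 3 of the 23 tetYAP 4W core barcodes held 39 of its 64 UMIs (60.9%).

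**Figure D4:**
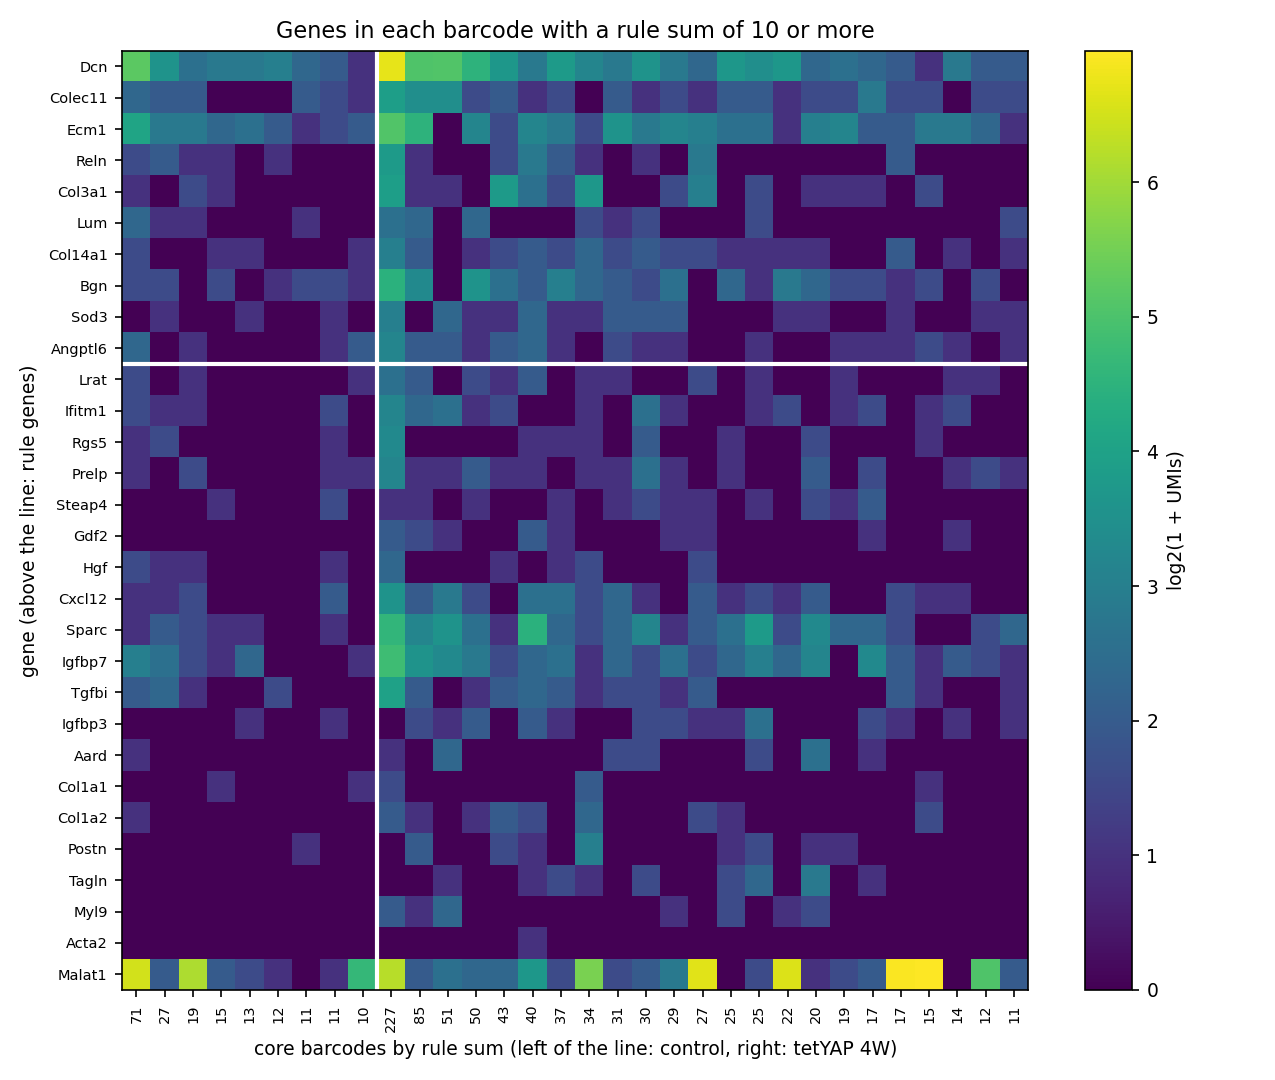
Heat map of log2(1 + UMIs) for the 10 rule genes (above the white line) and other stellate genes (below it) in each of the 9 control and 23 tetYAP 4W core barcodes, ordered by rule sum and divided by the vertical line. Dcn is present in every column, and Lrat in 12 of the 23 tetYAP 4W columns.

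Against the other barcodes of their own library, members were set apart by few genes. With at least 20 UMIs in members required and the rule genes set aside, 4 of 716 genes (0.559%) were at least 2-fold higher in control members and 28 of 1463 (1.91%) in tetYAP 4W members. Between core barcodes and barcodes with a sum of 0, at a minimum of 10 UMIs, 12 of 371 genes (3.23%) were called in control and 135 of 880 (15.3%) in tetYAP 4W. In comparisons with the core, barcodes with a sum of 0 include those over the endothelial or macrophage limit. These were 33 in control beside 2416 under both limits, and 201 in tetYAP 4W beside 663. The control library gave fewer member UMIs, and 0 of the 25 other stellate genes reached the minimum there. Sparc was the gene called in members of both libraries.

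Lrat was higher in tetYAP 4W members and fell under the minimum in control. Lrat (chromosome 3, 82892582 to 82903974) had 10 UMIs in 9 control members and 30 in 18 tetYAP 4W members, which were 17.9% and 39.0% of all its UMIs in each library. The members held 1.57% and 5.19% of all UMIs. In the tetYAP 4W core the log2 ratio of Lrat over barcodes with a sum of 0 was 5.48 (4.55 to 6.41), with a UMI in 12 of 23 core barcodes and in 2 of 127 T and NK barcodes outside the members. Dhrs3, a retinal reductase, was at 0.09 (-0.98 to 0.99) in the core. Crabp1, Crabp2, Stra6 and Aldh1a2 had 0 UMIs in members of both libraries.

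Further genes of resting stellate cells were higher in the tetYAP 4W core. All 9 of the 25 that reached 10 UMIs there were at least 2-fold higher, where 15.3% of all 880 genes were. Their median log2 ratio was 5.48, and that of all 880 genes was 0.33. This minimum was counted in the core itself, which favours genes enriched there, so the share is a description only. Ifitm1, an interferon-induced membrane protein, stood at 6.41 (5.56 to 7.32). Gdf2, which encodes the ligand BMP9, also stood at 6.41 (5.01 to 7.96). Prelp, a leucine-rich matrix protein, was at 5.55 (4.79 to 6.31), and Hgf, the mitogen of hepatocytes, at 4.83 (3.51 to 6.08) on 10 UMIs in 5 barcodes. Rgs5, a regulator of G protein signalling found in pericytes, was at 3.58 (3.002 to 4.155) in all tetYAP 4W members. Pth1r and Ednrb, receptors for parathyroid hormone and endothelins, were at 5.54 (4.23 to 6.86) and 4.41 (3.22 to 5.52) in the core. The counts of Des (1 in control members and 8 in tetYAP 4W), Pdgfrb (2 and 6), Pdgfra (2 and 3) and Cygb (4 and 9), all classical markers, were too low for a ratio.

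The highest ratios in tetYAP 4W members belonged to matrix and contractile genes and to Aard. Aard, an alanine- and arginine-rich protein, had 20 of its 24 UMIs (83.3%) in 10 members, a log2 ratio of 6.51 over the other barcodes (4.94 to 8.52). Postn, which encodes periostin of remodelling matrix, was at 5.26 (4.11 to 6.51) and Col1a2, a chain of type I collagen, at 5.08 (4.04 to 6.17). Myl9 was at 4.97 (3.96 to 6.03), and Tagln, the actin-binding protein transgelin, at 4.51 (3.81 to 5.23). Igfbp3, a binding protein of insulin-like growth factors, was at 4.01 (3.34 to 4.68). Of the 33 matrix genes, 10 were compared in the tetYAP 4W core and 9 were at least 2-fold higher, where 15.3% of all genes were, among them Col5a1 at 6.41 (4.73 to 8.31) and the basement membrane chain Col4a1 at 2.74 (2.03 to 3.38). Of 25 YAP target genes, 2 were compared in tetYAP 4W members, Igfbp3 and Ccdc80, and both were higher, where 1.91% of all genes were. The minimum was counted in the members or core themselves, which favours genes enriched there. The matrix and YAP target shares are thus a description only. None of the 12 hepatocyte genes was at least 2-fold higher or lower in members or core of either library.

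In control, the leading genes were few and partly not mesenchymal. Sparc, a matricellular protein (chromosome 11, 55394159 to 55420080), stood at 154 CPM in control members against 32.5 in other barcodes, a log2 ratio of 2.25 (1.57 to 2.86). Igfbp7, a secreted protein of stellate and endothelial cells, was at 2.03 (1.55 to 2.48), and at 3.997 (3.265 to 4.649) in the core. Tgfbi, a matrix protein induced by TGF-beta, had 10 UMIs in 4 of the 9 core barcodes and a ratio of 6.79 (5.55 to 7.93). Raph1, an actin regulator, was at 3.65 (2.68 to 4.49) in the control core. Nudc, a chaperone of the dynein complex, was at 1.35 (0.63 to 1.99) in control members. Malat1, a nuclear non-coding RNA, was at 1.29 (1.14 to 1.44) in control members. Its 376 UMIs there were uneven, as 3 barcodes held 56.4% of them.

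Activation genes were sparse in members of both libraries. Of 27 such genes, 15 had 0 UMIs in control members and 3 in tetYAP 4W members. Of the 27, 8 had at least 20 UMIs over both libraries, and all 8 had 3 or fewer in control, so they passed this minimum through tetYAP 4W alone and no share of them is read as a result. Of the defining genes of a myofibroblast, Acta2 had 0 UMIs in control and 3 in tetYAP 4W members, Timp1 0 and 0, and Col1a1 2 and 8. The transgene of this model is named Col1A1-YAP by the study, and whether reads of it could reach Col1a1 is not given in the sources used here.

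Tagln (chromosome 9, 45929628 to 45936058) had the highest ratio of the genes that marked the members. It had 2 UMIs in control members and 40 in 16 tetYAP 4W members, a log2 ratio of 2.50 (1.14 to 6.18) with a control count below 3 raised to 3, and the ratio was 2.54 in the other barcodes. The genes ranked were at least 2-fold higher in members of either library and had at least 30 UMIs over both. Tagln entered through its tetYAP 4W count, which the ratio uses again, so its rank is a description only. Myl9 had 0 and 24 UMIs, a ratio of 3.39-fold with the control count raised to 3. Col1a2 (chromosome 6, 4505618 to 4541543) had 2 and 24 UMIs, a log2 ratio of 1.76 (0.34 to 5.47). The 84 UMIs of Tagln, Myl9, Tpm2 and Acta2 in tetYAP 4W lay in 24 of the 87 members, and 1 member held 16 of them. The 53 UMIs of Col1a1, Col1a2 and Postn lay in 21 members, 1 of which held 14. Of the 23 tetYAP 4W core barcodes, 13 held UMIs of the contractile group and 12 of the collagen and periostin group. Control members had 3 and 5 UMIs of these groups in all, and a count of 0 in a barcode of this depth does not show that the RNA was absent.

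Some activation genes had most of their counts in barcodes outside the core. S100a6, a calcium-binding protein of activated but also of many immune cells, had 0 UMIs in control members and 42 in tetYAP 4W members. The ratio was 5.94-fold with the control count raised to 3, yet 40 of the 42 UMIs lay in barcodes with sums of 3 to 9. At a sum limit of 5 only 8 of these UMIs were left, and without mixed members 4, against 0 in control. Vim, the intermediate filament vimentin, had 1 and 34 UMIs, a log2 ratio of 2.27 (1.27 to 9.20), and Lgals1, a galectin, 3 and 64, a ratio of 3.18 (1.57 to 5.49). In the other barcodes these stood at 5.47 and 3.23. Lgals1 was at 182 CPM in tetYAP 4W members and at 522 in T and NK barcodes. In the tetYAP 4W core neither Vim (0.45, -0.56 to 1.31) nor Lgals1 (0.78, 0.09 to 1.39) was 2-fold above barcodes with a sum of 0. Those barcodes include 201 over the endothelial or macrophage limit beside 663 under both. A comparison with the 663 alone was not made. Ly6c2, a surface protein of monocytes and lymphocytes, had 0 and 34 UMIs, of which 9 were left at a sum limit of 5.

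Few matrix and secreted genes could be compared in members, and their shares are given as a description only. Of 8 matrix genes compared, 7 were at least 2-fold higher (median 1.56, and 2.57 in the other barcodes), where 366 of all 2079 genes (17.6%) were at least 2-fold higher and 365 (17.6%) at least 2-fold lower. In control members Col1a2 and Col4a1 had 2 UMIs each, Col4a2 had 4, and Nid1 and Emilin1 had 5 each. These genes passed the minimum through tetYAP 4W alone, so the share of matrix genes is not read as a result. Of 9 secreted genes, 4 were at least 2-fold higher, with a median of 0.93 in members and 1.72 in the other barcodes. Csf1 had 0 UMIs in control members and 23 in tetYAP 4W, so it passed the minimum through tetYAP 4W alone. C3 had 258 and 2084, and members held only 1.53% and 5.75% of its UMIs in each library. The share of secreted genes is not read as a result. For matrix genes the core gave 6 of 6 (median 1.35), where 13.8% of the 571 genes compared in the core were higher and 22.1% lower. The core used the same minimum over both libraries, so this share is not read as a result either. Sparc had 23 UMIs in 14 control members and 232 in 65 tetYAP 4W members, a log2 ratio of 2.10 (1.48 to 2.78), with 3.25 in the other barcodes. Igfbp7 (chromosome 5, 77349240 to 77408045) had 42 and 188 UMIs, a ratio of 0.93 (0.44 to 1.44), with 2.28 in the other barcodes. Colec10, a collectin that pairs with Colec11, had 3 and 31 UMIs and a ratio of 2.13 (0.45 to 4.49), and Ramp1, part of the receptor for calcitonin gene-related peptide, had 4 and 29 and a ratio of 1.62 (0.11 to 3.59). Ifitm1 had 10 and 57 UMIs and a ratio of 1.27 (0.29 to 2.41). Igfbp3 had 7 and 38, a ratio of 1.20 (0.02 to 2.61). The other barcodes were at 0.69 for Colec10, 2.06 for Ramp1, 0.71 for Ifitm1 and 1.72 for Igfbp3. Colec10, Ramp1 and Ifitm1 were named through their tetYAP 4W counts, which the ratios use again, so these ratios are a description only.

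Cxcl12 differed in direction between members and other barcodes. Cxcl12, the chemokine that retains leukocytes through CXCR4 (chromosome 6, 117168535 to 117181368), had 18 UMIs in 14 control members and 88 in 43 tetYAP 4W members, a log2 ratio of 1.05 (0.31 to 1.87), where the other barcodes were at -0.43. Members held 2.31% of its UMIs in control and 18.4% in tetYAP 4W. Most Cxcl12 UMIs lay outside members, and the difference of the ratios was not tested.

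Over all members, most stellate identity genes differed by less than 2-fold between the libraries, with intervals that held 0. Lrat was at 67.0 CPM in control members and 85.3 in tetYAP 4W members, a log2 ratio of 0.35 (-0.72 to 1.55). Hgf (chromosome 5, 16553495 to 16619439) had 9 and 11 UMIs and a ratio of -0.95 (-2.36 to 0.50), which turned positive under 1 alternative, while the other barcodes were at 2.24. The ratio was 0.76 for Rgs5 (-0.21 to 1.87) and 0.42 for Prelp (-0.51 to 1.44). Of 9 stellate genes compared, 1 (Ifitm1) was at least 2-fold higher and 0 were lower, with a median of 0.62, where 17.6% of all genes were higher and 17.6% lower. In the core 5 of them were compared, and 3 were at least 2-fold higher and 0 lower (median 1.10). Of all 571 genes compared in the core, 13.8% were higher and 22.1% lower. Control core barcodes held only 4 UMIs of Lrat, 4 of Rgs5, 5 of Prelp and 6 of Ifitm1, so the core values rest mainly on tetYAP 4W counts. The intervals did not exclude a 2-fold lower level of Hgf or a 2-fold higher level of Lrat, Rgs5 and Prelp in tetYAP 4W.

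Nudc, a leading gene of control members, was lower in tetYAP 4W members. It had 20 UMIs in 16 control members and 18 in 14 tetYAP 4W members, a log2 ratio of -1.39 (-2.39 to -0.40), where the other barcodes were at -0.20. The ratio reuses the control count that chose Nudc, which stood at the minimum of 20, so it is a description only. It ran from -1.99 to -0.45 over the alternatives. In tetYAP 4W Nudc was at 51.2 CPM in members and 45.6 in other barcodes. Tmem56, a membrane protein that was also higher in members, was at -0.50 (-1.07 to 0.09), and Pam, an enzyme that amidates peptides, at -0.43 (-1.52 to 0.73). Both of these turned positive under at least 1 alternative. Tgfbi had 17 and 52 UMIs and a ratio of 0.38 (-0.44 to 1.26), well below the 3.26 of the other barcodes. Malat1 was at 0.77 (0.61 to 0.94) in members and at 2.13 in the other barcodes.

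**Figure D5:**
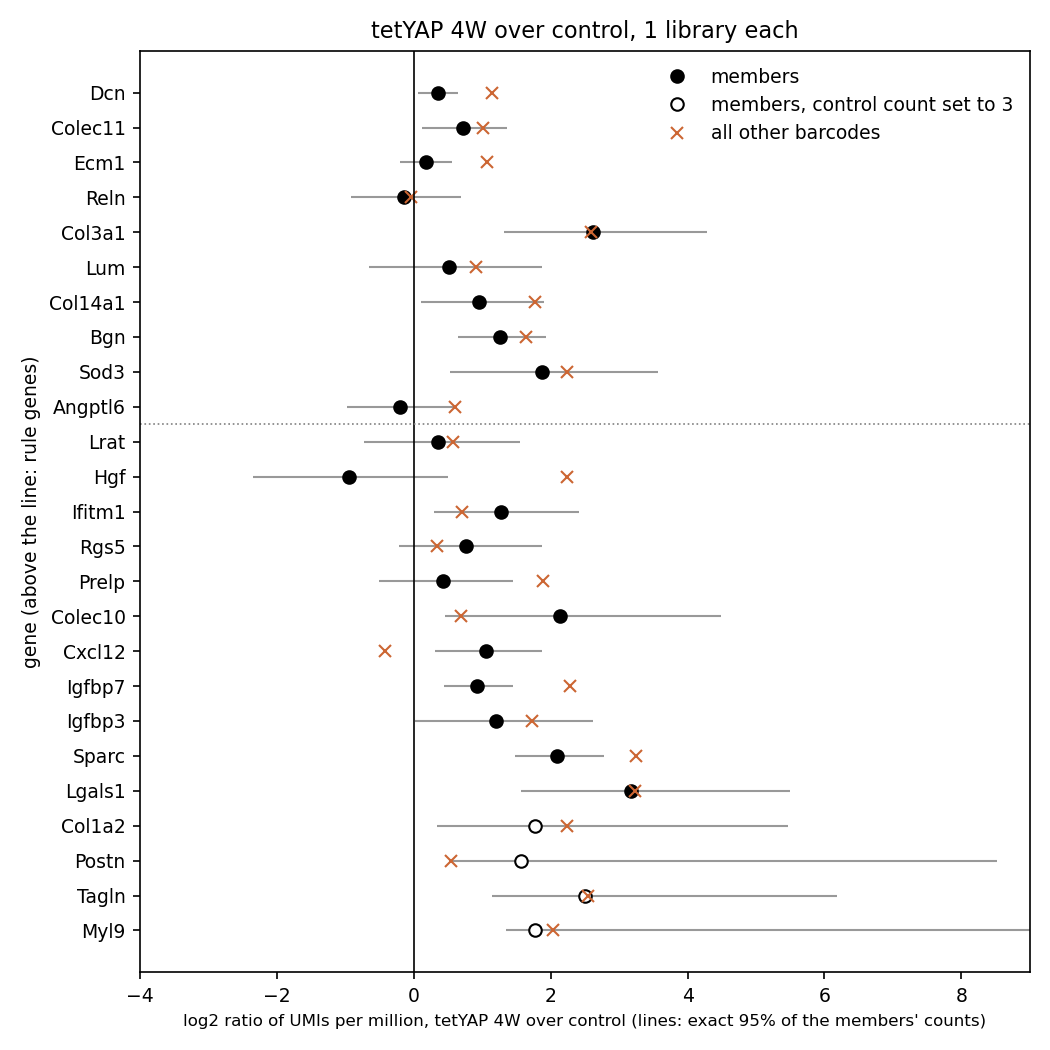
Log2 ratio of CPM, tetYAP 4W over control, for named genes in members (circles, open where the control count was set to 3, with exact 95% lines, that of Myl9 without an upper end) and in all other barcodes (crosses), with rule genes above the dotted line. Col3a1, Tagln, Sparc and Lgals1 lie above 2 in members, Lrat and Ecm1 lie near 0, and for most genes the cross lies on the same side as the circle.

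Genes of the YAP pathway were barely sampled in members. Yap1 had 2 UMIs in control and 9 in tetYAP 4W members, and its paralog Wwtr1, which encodes TAZ, had 2 and 3. The direct targets Cyr61 and Ctgf had 0 and 13, and 0 and 3. Amotl2, which feeds back on the pathway, had 4 and 7. Only Igfbp3 and Ccdc80 of 25 target genes could be compared, and Ccdc80 had 2 and 22 UMIs, a log2 ratio of 1.64 (0.20 to 5.36) with 2.46 in the other barcodes. Of the genes of the response to tissue dissociation, such as Fos and Junb, 8 could be compared. Of these, 5 were at least 2-fold higher in tetYAP 4W members (median 1.32, with 17.6% of all genes higher). The same 8 had a median of 1.85 in the other barcodes. In control members the 5 had few UMIs (Junb 3, Fos 4, Dusp1 4, Zfp36 5 and Jund 12). They passed the minimum through tetYAP 4W alone, so the share is not read as a result.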

How the data were processed

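The authors deposited raw counts, whole numbers of UMIs for 31053 genes in 4513 cell barcodes. Per the labels and the study's methods, perfused livers were run on Chromium 3′ chemistry, processed with Cell Ranger on mm10, down-sampled to 3000 barcodes per condition and freed of barcodes above 7500 UMIs, with Seurat version 3 downstream. Libraries were grouped by genotype, 1 per group. Members, gene lists and named genes were chosen with earlier results of these data known. Named genes are the rule genes, a list of stellate, activation and YAP genes, the 8 highest ratios per library in members (20 UMIs) and core (10 UMIs), and the 6 highest and 6 lowest tetYAP 4W over control ratios among genes at least 2-fold higher in members, plus list genes with 10 UMIs in the core. UMIs were summed per set and scaled to CPM of the set with Python 3.11.15 and scipy 1.17.1. Counts below 3 were raised to 3. Sums carry exact Poisson, shares exact binomial (Clopper-Pearson) and ratios exact conditional binomial intervals at 95%. No p-value was computed, since a group was 1 library. Doublets were not called. Scripts were tested on simulated data. Scalings by edgeR 4.0.16 (TMM) and DESeq2 1.42.0 were alternatives, with other limits, minima and thinning.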

Additional observations from a re-analysis of the deposited data

Results flagged for a closer look

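Xist, which none of the comparisons used, had 208 UMIs in tetYAP 4W members and 0 in control members. It is listed here because the signal stands above the control library. Of the tetYAP 4W members 44 held it, while 8 control members held UMIs of Y-linked genes. The effect of this difference on other genes was not tested.

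The 66 tetYAP 4W barcodes that reached the sum of 3 but exceeded the endothelial or macrophage limit held 2.44 UMIs of the 25 other stellate genes each (2.08 to 2.85). Barcodes with a sum of 0 and under both limits held 0.477. The 66 are listed because they were left out of the members and carry stellate RNA. Whether such a barcode is 1 cell or several was not tested.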

How the results depend on the processing

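The share of members was 3.58% (control) and 9.78% (tetYAP 4W) at a sum limit of 2, and 0.602% and 3.02% at 5. After thinning to 1000 UMIs it was 0.540% and 2.23%. These equal the thinned shares of all barcodes without the endothelial and macrophage limits, which removed none at that depth. In tetYAP 4W the share of members was also 1.97% with endothelial and macrophage sums under 3, 10.04% with no such limit and 4.40% among barcodes of at most 30% mitochondrial UMIs. Core stellate RNA per 10000 UMIs was 35.2 in tetYAP 4W after thinning, and 12.9 (control) and 24.5 (tetYAP 4W) without the barcode of the highest sum, an alternative chosen after the data were seen. Genes at least 2-fold higher in members than in other barcodes numbered 4 in control and 28 in tetYAP 4W, and became 34 and 113 at a minimum of 10 UMIs, 1 and 7 at 50, and 3121 and 2254 with none, where small counts decide the ratio, and 58 in tetYAP 4W at most 30% mitochondrial UMIs.

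Between libraries 366 genes were higher and 365 lower in tetYAP 4W members. The numbers were 145 and 227 at a sum limit of 5, 141 and 222 with endothelial and macrophage sums under 3, 92 and 193 at 50 UMIs, and 202 and 177 at most 30% mitochondrial UMIs. The lower genes were 589 at 10 UMIs and 823 with no minimum. Without members that hold RNA of another class (chosen after the data were seen) 148 were higher and 336 lower. The share of higher genes among those called moved from 50.1% to 58.0% with TMM (403 higher, 292 lower), 59.5% with DESeq2 size factors (419 and 285), 39.0% at a sum limit of 5, 38.8% with the lower endothelial and macrophage limit, 32.3% at 50 UMIs, 36.9% with no minimum and 30.6% without mixed members. These scalings moved the median of all genes from -0.14 to 0.01 and 0.02.

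With a control count of 0 raised to 3, the log2 ratio was -0.039 for Ly6c2 and -0.21 for S100a6 at a sum limit of 5. It was -0.23 for S100a6 without mixed members. The negative sign comes from the raised count and gives no direction. No ratio was given for Postn under the lower endothelial and macrophage limit and at most 30% mitochondrial UMIs, or for Ly6c2 without mixed members, as both counts were under the floor. Of the values of single genes under alternatives, 315 moved by less than the counting interval and 19 by more. Lum, Reln, Angptl6, Pam, Tmem56 and Hgf, all under 2-fold, changed sign under at least 1 alternative. Sparc (1.99 to 2.89), Tagln (1.80 to 2.82) and Lgals1 (2.08 to 3.69) were at least 2-fold higher in all 10 alternatives run for them. Thinned counts and single libraries limit all of this: most stellate genes had only a few UMIs in all members, and no spread between animals could be had. No paired analysis was possible because each group has 1 library and the labels give no replicate numbers.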
